A study of Mus musculus with 30 samples.

Results

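The genes described here are 6 CXC chemokines, Cxcl1, Cxcl2, Cxcl3, Cxcl5, Ppbp and Pf4, chosen by gene symbol from the 22121 genes of the array. They are read by 8 of its 45037 probe sets other than controls, 3 for Cxcl1 and 1 for each other gene, and all 8 were among the 36029 probe sets tested. Messenger RNA was measured with Affymetrix mouse genome arrays in whole shaved back skin of female WT and D6-deficient mice of the 129–C57BL/6 strain, aged 8 to 12 weeks. Skin received 3 applications of 50 µM of the phorbol ester TPA in acetone, 24 h apart, and was taken 1, 2, 4 or 6 days afterwards. The day 0 groups received acetone only, although their labels also call them untreated. Each of the 10 groups, WT and D6-deficient at days 0, 1, 2, 4 and 6, had 3 biological replicates, so 30 arrays were compared.

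CXC chemokines are small secreted proteins that guide leukocytes. Cxcl1, Cxcl2, Cxcl3, Cxcl5 and the processed forms of Ppbp act on the receptor Cxcr2 of neutrophils, and keratinocytes, macrophages and neutrophils themselves make several of them in inflamed skin. Pf4 is stored in platelet granules together with Ppbp and is not a classical Cxcr2 ligand. TPA activates protein kinase C and inflames the skin. D6, the product of Ackr2, is an atypical receptor that selectively takes up inflammatory CC chemokines and removes them, while the members here are CXC chemokines.

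In the RefSeq order of genes on mouse chromosome 5 the members form a cluster, running Cxcl5, Ppbp, Pf4, Cxcl3, Cxcl15, Cxcl1, Cxcl2. The RefSeq promoter table used (build GRCm38.p6) held 5 of the 6 members, without Cxcl5. All 5 had higher means at day 4 after TPA than at day 0, although the Pf4 change was under 3-fold in WT skin. The 120 bases before the start of each are shown for this reason. All are on the + strand, at chr5:90891125-90891244 for Cxcl1, chr5:90903779-90903898 for Cxcl2, chr5:90785981-90786100 for Cxcl3, chr5:90768398-90768517 for Ppbp and chr5:90772315-90772434 for Pf4. Capitals mark the letters GGNNNTTCC, the form of an NF-kappaB motif, on either strand, and TATAAA, the TATA box.
Cxcl1: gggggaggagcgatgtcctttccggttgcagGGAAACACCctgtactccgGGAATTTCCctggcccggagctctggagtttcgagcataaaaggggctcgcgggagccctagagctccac
Cxcl2: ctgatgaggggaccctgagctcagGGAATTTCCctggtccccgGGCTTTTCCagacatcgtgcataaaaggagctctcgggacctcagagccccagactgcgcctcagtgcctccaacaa
Cxcl3: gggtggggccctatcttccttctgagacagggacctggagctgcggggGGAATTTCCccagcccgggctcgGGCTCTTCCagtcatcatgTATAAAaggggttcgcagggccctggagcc
Ppbp: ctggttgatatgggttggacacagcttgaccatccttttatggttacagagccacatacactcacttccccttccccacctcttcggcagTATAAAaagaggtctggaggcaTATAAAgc
Pf4: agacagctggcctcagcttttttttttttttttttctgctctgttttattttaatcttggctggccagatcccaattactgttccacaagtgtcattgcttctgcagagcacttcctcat

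The search covered both strands of 300 bases, 250 of them before the start. GGNNNTTCC was present in 18.5% of 32851 promoters and in 3 of the 5 member promoters. Cxcl1 held it from -70 to -62 and, on the other strand, from -89 to -81. Cxcl2 held it from -77 to -69 and from -96 to -88, and Cxcl3 from -49 to -41 and from -72 to -64. TATAAA was present in 13.6% of promoters, in Cxcl3 from -30 to -25 and in Ppbp from -30 to -25 and from -8 to -3. TGANTCA, the form of an AP-1 motif, was present in 7.81% of promoters and in Ppbp from -204 to -198, outside the stretch shown. The Pf4 window held none of these letters. A match describes the letters of a window and shows no binding.

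Values are the deposited normalized intensities, and differences are on the log2 scale. A probe set is called changed, or said to have risen or fallen, when its adjusted p from limma over all tested probe sets was under 0.05 and the difference was more than 3-fold. The unpaired t-test of the methods calls at an unadjusted p under 0.05 and more than 3-fold, and what it called, or what passed its p alone without the fold limit, is given beside a count of 0. Array values are given for replicates 1, 2 and 3, group means as log2 with the SD over 3 arrays, and percentages beside a count are the share of all tested probe sets called in that direction. Each such share is at the limma and 3-fold limit. For counts at an unadjusted p, at an adjusted p alone or without overlap, no share of all tested is given. With 3 arrays on each side, the smallest p of an exact permutation is 0.1. In whole skin, more cells of a type and more RNA per cell cannot be told apart.

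The genotype was checked with the targeted gene, which the array calls Ccbp2. The probe set with the largest difference ranged from 3.30 to 3.86 in the 15 D6-deficient arrays and from 4.15 to 5.76 in the 15 WT arrays, so the genotypes did not overlap, and their difference over all days was -1.41 (adjusted p 1.29e-08). Its other probe sets differed by -0.69 (adjusted p 5.2e-05, arrays overlapping) and by -0.07 (adjusted p 0.795). Where these probes lie relative to the deletion is not known. Markers of skin were present at mean log2 levels of 13.58 for Krt14 of keratinocytes and 14.44 for Col3a1 of fibroblasts, and Acta1 of skeletal muscle, which lies under back skin, was at 13.91.

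**Figure D1:**
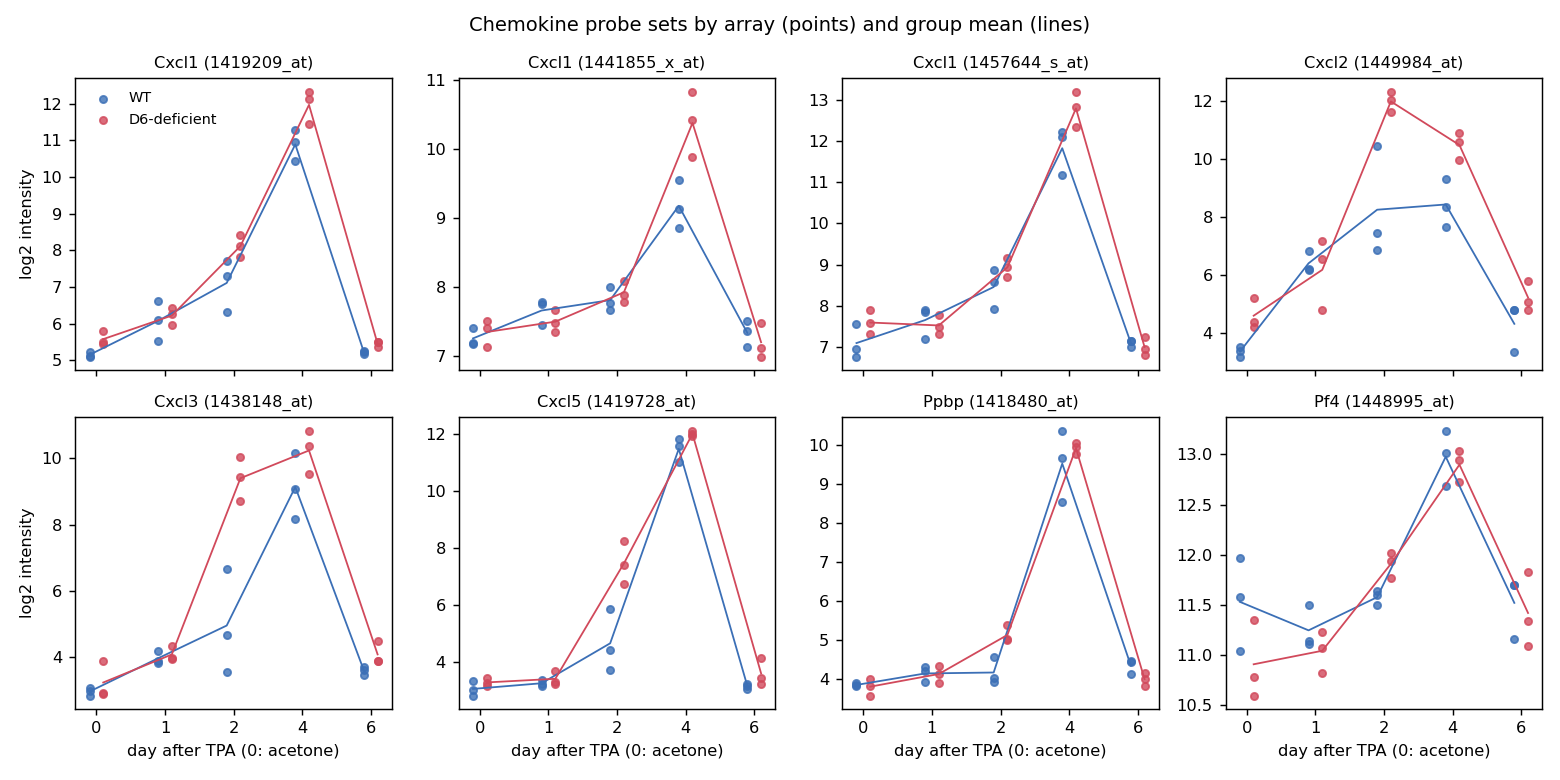
Log2 intensity of each member probe set by day after TPA in WT and D6-deficient skin, with a point for each of the 30 arrays and lines through the group means. Cxcl2 was highest at day 2 in D6-deficient skin (mean 11.99), while Cxcl1 and Cxcl5 were highest at day 4 in both genotypes.

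Cxcl2 encodes MIP-2, a Cxcr2 ligand. Its intensity in WT skin was 10.4, 9.05 and 11.3 on day 0, 72.0, 72.7 and 114 on day 1, 175, 1399.5 and 115 on day 2, 323, 200.2 and 631 on day 4, and 27.6, 27.9 and 10.1 on day 6. In D6-deficient skin it was 20.8, 18.1 and 36.9 on day 0, 27.8, 93.0 and 145 on day 1, 4168, 5124 and 3127 on day 2, 1534, 1925 and 987 on day 4, and 27.7, 55.2 and 33.6 on day 6. All 3 D6-deficient arrays exceeded every WT array at days 0, 2 and 4, and the genotypes overlapped at days 1 and 6. A single WT array, replicate 2 of day 2, stood far above the other WT arrays of its day.

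In order, the group means of Cxcl2 were 11.99 ± 0.36 in D6-deficient skin at day 2, 10.48 ± 0.49 in D6-deficient skin at day 4, 8.43 ± 0.83 in WT skin at day 4 and 8.25 ± 1.93 in WT skin at day 2. The D6-deficient day 2 group lay above the next group without overlap, as did D6-deficient day 4, whereas WT days 4 and 2 overlapped. WT day 1 followed at 6.40 ± 0.38, below all WT day 2 arrays, and the remaining neighbours down to WT day 0 (3.35 ± 0.16) overlapped. At day 2 the D6-deficient mean exceeded the WT mean by 3.74 (95% CI 2.38 to 5.10, 13.4-fold, adjusted p 0.000835). Leaving out each array in turn gave 3.04 to 4.84, and the difference was called each time. At day 4 the difference was 2.05 (95% CI 0.69 to 3.41) and missed the threshold (adjusted p 0.193).

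Cxcl2 was the only member called at day 1, and only in WT skin, where it was 3.05 above day 0 (8.27-fold, adjusted p 0.00149). In D6-deficient skin the day 1 change was 1.58 (adjusted p 0.0626), with replicate 1 of day 1 inside the range of day 0. Without that array the change was 2.27 and was called (adjusted p 0.0142), and array weights gave 1.84 (adjusted p 0.00363). The genotypes' day 1 changes were not shown to differ, as no member passed the test of that difference. From day 1 to day 2 Cxcl2 rose by 5.81 in D6-deficient skin (adjusted p 1.98e-06), and the WT change of 1.85 missed the threshold (adjusted p 0.188). That WT change was 0.75 to 2.55 with an array left out, lowest without replicate 2 of day 2.

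Cxcl3 encodes a further Cxcr2 ligand, and its gene lies between Pf4 and Cxcl15 in the cluster. Its intensity in WT skin was 8.49, 7.84 and 7.20 on day 0, 14.2, 18.4 and 14.8 on day 1, 25.4, 102 and 11.7 on day 2, 542, 286 and 1152 on day 4, and 13.1, 12.3 and 11.1 on day 6. In D6-deficient skin it was 7.62, 7.47 and 14.9 on day 0, 15.3, 20.3 and 15.8 on day 1, 691, 1066 and 421 on day 2, 1828, 1317 and 734 on day 4, and 22.3, 14.9 and 14.9 on day 6. At day 2 every D6-deficient array was above every WT array, while at day 4 the genotypes overlapped. At day 6 the D6-deficient arrays were again the higher, by 0.49 (adjusted p 0.845). WT replicate 2 was, as for Cxcl2, the highest WT array of day 2.

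The highest Cxcl3 means were 10.24 ± 0.67 in D6-deficient skin at day 4, 9.40 ± 0.67 in D6-deficient skin at day 2 and 9.14 ± 1.01 in WT skin at day 4, and neighbours among these overlapped. WT day 2 followed far lower, at 4.96 ± 1.58, and the other groups lay between 2.97 and 4.09. The genotype difference at day 2 was 4.44 (95% CI 3.36 to 5.53, 21.8-fold, adjusted p 5.64e-06) and was called with each array left out, from 3.74 to 5.30. In WT skin the change from day 0 to day 2 was 1.99 (adjusted p 0.00652), a call that rested on replicate 2 of day 2. Without that array it was 1.14 (adjusted p 0.0816), and with only the compared arrays in the fit its adjusted p was 0.061.

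Cxcl5 encodes LIX, a Cxcr2 ligand made by epithelial cells. Its intensity in WT skin was 9.91, 8.01 and 6.99 on day 0, 10.2, 8.88 and 9.27 on day 1, 21.0, 57.1 and 13 on day 2, 3095, 2100 and 3610 on day 4, and 8.21, 9.34 and 8.92 on day 6. In D6-deficient skin it was 10.7, 8.78 and 9.51 on day 0, 9.25, 12.9 and 9.78 on day 1, 305, 106 and 167 on day 2, 4067, 4455 and 3887 on day 4, and 10.8, 17.4 and 9.18 on day 6. Every D6-deficient array was above every WT array at days 2 and 4. Days 0, 1 and 6 lay close together in both genotypes.

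Mean Cxcl5 was 12.01 ± 0.10 in D6-deficient and 11.48 ± 0.40 in WT skin at day 4, 7.45 ± 0.77 in D6-deficient skin at day 2 and 4.64 ± 1.09 in WT skin at day 2. These 4 groups did not overlap with each other, but WT day 2 overlapped with the next, D6-deficient day 6, and so did the remaining neighbours, between 3.04 and 3.59. At day 2 the genotype difference was 2.81 (95% CI 2.06 to 3.56, 7.01-fold, adjusted p 2.11e-05), called with each array left out, from 2.34 to 3.41. At day 4 it was 0.53 (adjusted p 0.709, 0.30 to 0.70 with an array left out). The WT change to day 2 was 1.60 (3.04-fold, adjusted p 0.00198), and it dropped below 3-fold without replicate 2 of day 2 (1.01) or replicate 3 of day 0 (1.49). From day 1 to day 2 the WT change of 1.41 missed the threshold (adjusted p 0.056), and without replicate 3 of day 2 it was 1.88 and called (adjusted p 0.00758).

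Cxcl1 encodes KC, a Cxcr2 ligand of many tissue cells, and is read by 1419209_at, 1457644_s_at and 1441855_x_at. The endings _s_at and _x_at mark probes that may also match other transcripts. The intensity of 1419209_at in WT skin was 37.5, 34.8 and 34.4 on day 0, 97.5, 69.1 and 45.7 on day 1, 211, 158 and 79.8 on day 2, 1992, 1387 and 2489 on day 4, and 38.4, 37.5 and 36.2 on day 6. In D6-deficient skin it was 44.9, 43.5 and 56.1 on day 0, 63.0, 85.9 and 76.8 on day 1, 342, 279.7 and 225 on day 2, 5156, 4498 and 2799 on day 4, and 41.1, 45.0 and 45.3 on day 6. The genotypes did not overlap at any day but day 1, always with D6-deficient arrays higher, and the gaps at days 0 and 6 were small.

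The order for 1419209_at was D6-deficient day 4 (11.97 ± 0.46), WT day 4 (10.89 ± 0.43), D6-deficient day 2 (8.12 ± 0.30) and WT day 2 (7.11 ± 0.72). These did not overlap with each other, and WT day 2 overlapped with D6-deficient day 1. At day 2 the genotype difference of 1.01 passed the adjusted p (0.0412) but not the 3-fold limit. It missed the adjusted p without WT replicate 2 (1.10, adjusted p 0.06) or 3 (0.61, adjusted p 0.304) or D6-deficient replicate 1 (0.86, adjusted p 0.158) or 2 (1.00, adjusted p 0.129) of day 2. With array weights its adjusted p was 0.0597, with the hybridization set in the fit 0.0508 and with only the compared arrays 0.135. The other probe sets showed 0.48 for 1457644_s_at (adjusted p 0.442) and 0.11 for 1441855_x_at (adjusted p 0.865). With an array left out these were 0.21 to 0.68 and 0.03 to 0.21. At day 4 the differences were 1.20 for 1441855_x_at (adjusted p 0.00247, 2.30-fold, and 0.154 with only the compared arrays), 1.08 for 1419209_at (adjusted p 0.0934) and 0.97 for 1457644_s_at (adjusted p 0.124, 0.64 to 1.19 with an array left out). The day 4 intensity of 1441855_x_at was 557, 461 and 749 in WT and 1819.8, 1374 and 939 in D6-deficient skin. For 1457644_s_at it was 4357, 2307 and 4741 in WT and 9381, 7286 and 5188 in D6-deficient skin. In both cases every D6-deficient array was above every WT array.

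The Cxcl1 probe sets also differed in size of change. From day 0 to day 2, 1419209_at rose by 1.96 in WT (adjusted p 1.91e-05) and 2.54 in D6-deficient skin (5.81-fold, adjusted p 2.35e-07). The changes of 1457644_s_at were 1.36 and 1.34 and those of 1441855_x_at 0.56 and 0.58, all with adjusted p under 0.05 and under 3-fold. For 1441855_x_at the adjusted p reached 0.148 in WT and 0.104 in D6-deficient skin with an array left out. Leaving out WT replicate 1 of day 0 (1.59) or replicate 3 of day 2 (1.62) brought 1457644_s_at above 3-fold in WT skin. Averaging the 3 probe sets gave changes to day 2 below 3-fold, 1.29 in WT and 1.48 in D6-deficient skin.

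Ppbp encodes the precursor of NAP-2, which becomes a Cxcr2 ligand after cleavage. Its intensity in WT skin was 14.3, 14.9 and 14.0 on day 0, 19.7, 18.5 and 15.1 on day 1, 16.3, 23.4 and 15.1 on day 2, 821, 370.2 and 1328 on day 4, and 21.8, 22.1 and 17.3 on day 6. In D6-deficient skin it was 16.1, 14.1 and 11.9 on day 0, 15.0, 20.2 and 17.5 on day 1, 31.8, 41.5 and 32.4 on day 2, 1067, 986 and 876 on day 4, and 17.9, 15.9 and 14.2 on day 6. The day 4 arrays stood far above all others in both genotypes, which overlapped there. At day 2 all D6-deficient arrays were above all WT arrays.

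Mean Ppbp was 9.93 ± 0.14 in D6-deficient and 9.53 ± 0.93 in WT skin at day 4, then 5.13 ± 0.21 in D6-deficient skin at day 2, and 3.80 to 4.34 elsewhere with neighbours overlapping. The day 2 genotype difference of 0.96 (95% CI 0.41 to 1.52) had an adjusted p of 0.0382 and was under 3-fold. It missed the adjusted p with any array of day 2 left out but WT replicate 2 (1.16, adjusted p 0.0253), at 0.84 to 1.03 and adjusted p up to 0.195, and with the replicate block the adjusted p was 0.0502. At day 4 the difference was 0.40 (adjusted p 0.701), and without WT replicate 2 of day 4, the lowest array there, it was -0.10.

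Pf4 encodes platelet factor 4. Its intensity in WT skin was 3997, 3071 and 2112 on day 0, 2889, 2252 and 2209.5 on day 1, 2902, 3183 and 3096 on day 2, 8274, 6574 and 9655 on day 4, and 3332, 3324 and 2293 on day 6. In D6-deficient skin it was 1760.3, 2608 and 1549.7 on day 0, 1815, 2408 and 2154 on day 1, 3495, 4143 and 3936 on day 2, 8375, 7869 and 6758 on day 4, and 3633, 2189 and 2589.9 on day 6. The genotypes overlapped at days 0, 1, 4 and 6, and at day 2 the D6-deficient arrays were the higher. Day 4 arrays were the highest in both genotypes, without overlap with any other day.

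In order, Pf4 means at day 4 were 12.98 ± 0.28 in WT and 12.90 ± 0.16 in D6-deficient skin, which overlapped, then 11.91 ± 0.13 in D6-deficient skin at day 2 and 11.58 ± 0.07 in WT skin at day 2, with the others down to 10.91 ± 0.39 in D6-deficient skin at day 0. At day 0 the D6-deficient mean differed from WT by -0.62 (95% CI -1.08 to -0.17, adjusted p 0.165, -0.87 to -0.41 with an array left out). The change to day 4 was 1.99 in D6-deficient skin (3.97-fold, adjusted p 1.25e-07), which was called, and 1.45 in WT skin (2.73-fold, adjusted p 1.35e-05), which was not. Without WT replicate 1 of day 0 the WT change was 1.66 and without replicate 2 of day 4 it was 1.59, both called. The difference between these changes, 0.54, was not called and was 0.33 to 0.79 with an array left out.

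**Figure D2:**
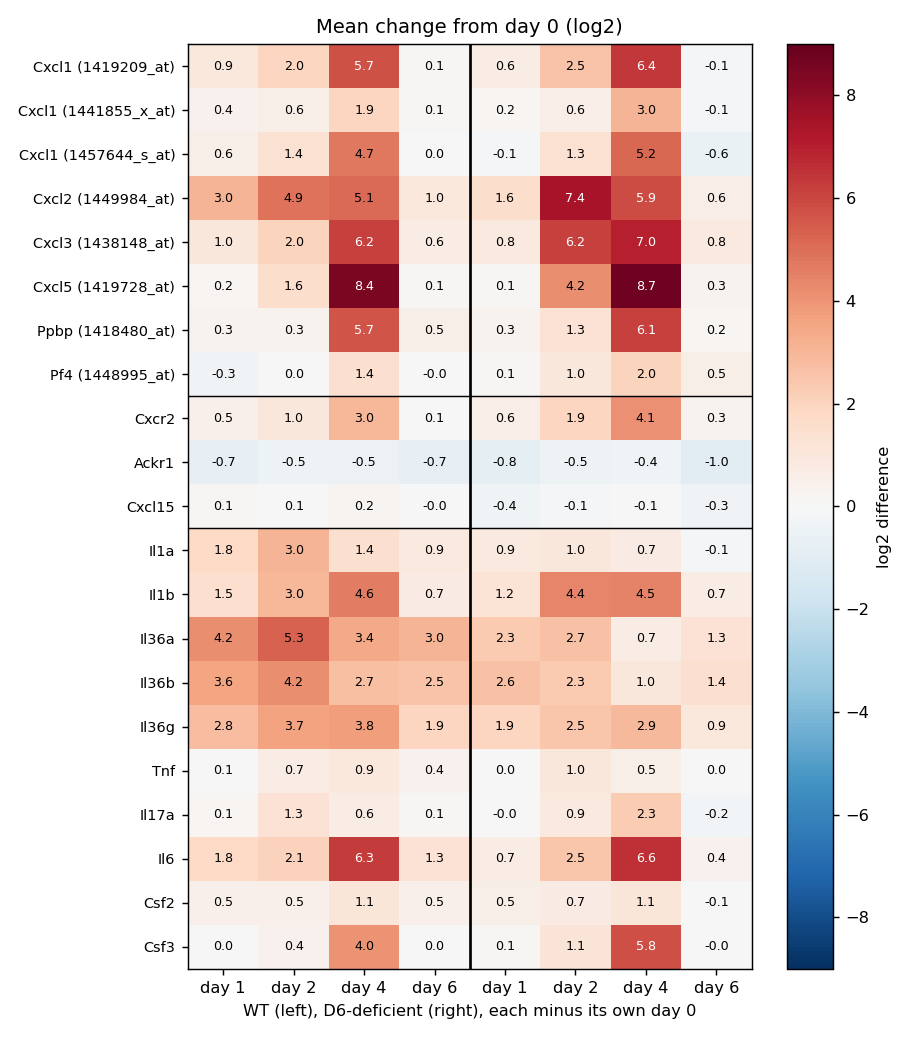
Mean log2 change from day 0 of the same genotype at days 1, 2, 4 and 6 for the member probe sets, the receptor Cxcr2, Ackr1 and Cxcl15, and 10 upstream cytokines. Colour gives the change, with the highest member value at 8.75 for Cxcl5 in D6-deficient skin at day 4.

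The comparison with day 0 sets skin after TPA against acetone control skin of the same genotype. Acetone controls were at day 0 only, so TPA and time since shaving cannot be told apart. The heat map of changes from day 0 shows the members beside their receptor and upstream cytokines. In WT skin 1 of 8 probe sets rose at day 1 (0.93% of all tested), 4 at day 2 (1.2%) and 7 at day 4 (1.76%). The 4 at day 2 include Cxcl3 and Cxcl5, which were not called without WT replicate 2 of day 2, and the t-test called 2. In D6-deficient skin 4 of 8 rose at day 2 (1.7%) and all 8 at day 4 (1.97%). At day 1 none was called in D6-deficient skin by limma (1.06% of all tested), with 2 at an unadjusted p under 0.05 and 0 called by the t-test (1 by its p alone). At day 4 the WT median over the 8 probe sets was 5.38 and the D6-deficient median 6.01, against 0.01 over all tested in either genotype. No member estimate was negative at day 4, when 1.48% of all tested probe sets were called lower in WT and 2.04% in D6-deficient skin.

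Cxcl5 rose at day 4 by 8.44 in WT (348-fold, adjusted p 1e-13) and 8.75 in D6-deficient skin (429-fold, adjusted p 8.94e-14). Ppbp rose by 5.68 in WT (51.4-fold, adjusted p 5.8e-13) and 6.13 in D6-deficient skin (69.8-fold, adjusted p 1.03e-13). Cxcl3 was 72.0-fold above day 0 in WT and 128-fold in D6-deficient skin. Cxcl2 rose by 5.08 and 5.89 and Cxcl1 (1419209_at) by 5.74 and 6.39 in these genotypes. The day 0 means of Cxcl5 (3.04 in WT, 3.27 in D6-deficient skin) and Cxcl3 (2.97 and 3.24), and of Cxcl2 in WT (3.35), were below the lowest mean tested, 3.72. Those of Ppbp (3.85 in WT, 3.80 in D6-deficient skin) lay just above it. These folds and their order among members are therefore not known exactly. At day 2 Cxcl2 in D6-deficient skin was 7.40 above day 0 (169-fold, adjusted p 8.75e-09), with 6.16 for Cxcl3 (71.6-fold) and 4.19 for Cxcl5 (18.2-fold). In WT skin at day 2 Cxcl2 was 4.90 above day 0 (adjusted p 6.97e-06). The WT changes of Ppbp and Pf4 by then were 0.32 (adjusted p 0.421) and 0.05 (adjusted p 0.904). With an array left out they were 0.13 to 0.44 and -0.20 to 0.26, so the direction for Pf4 is open. The D6-deficient changes of Ppbp and Pf4, 1.33 and 1.00, passed the adjusted p but were under 3-fold.

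By day 6 no member was called against day 0 by limma in WT (0.799% of all tested called higher) or D6-deficient skin (0.888%). At an unadjusted p under 0.05 were 0 of 8 in WT and 2 of 8 in D6-deficient skin. The t-test called 0 in both (2 in WT, Cxcl3 and Ppbp, and 1 in D6-deficient skin by its p alone). The largest remaining changes were 0.96 for Cxcl2 in WT (adjusted p 0.328, 0.71 to 1.45 with an array left out) and 0.85 for Cxcl3 in D6-deficient skin (adjusted p 0.235). Between day 4 and day 6, 7 of 8 probe sets fell in WT (1.1% of all tested) and 7 of 8 in D6-deficient skin (1.56%). Cxcl5 fell by 8.34 and 8.43 in WT and D6-deficient skin and Cxcl3 fell by 5.53 and 6.15. The day 6 means of Cxcl5 (3.14 and 3.59) and of Cxcl3 in WT (3.60) were below the lowest mean tested, 3.72. The sizes of these falls are therefore not known exactly. Pf4 changed by -1.46 and -1.48, under 3-fold, although leaving out WT replicate 2 of day 4 (-1.60) or D6-deficient replicate 1 of day 6 (-1.68) took it past the limit.

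Between day 1 and day 2 no member was called in WT skin by limma (0.108% of all tested), with 4 of 8 at an unadjusted p under 0.05 and 0 by the t-test with or without the fold limit, and 4 of 8 rose in D6-deficient skin (0.558%). These were Cxcl2, Cxcl3 (5.31, adjusted p 3.21e-07), Cxcl5 (4.06, adjusted p 8.93e-08) and Cxcl1 by 1419209_at (1.90, adjusted p 7.74e-05). With the Cxcl1 probe sets averaged this last value was 1.24 and under 3-fold. Between day 2 and day 4, 5 of 8 rose in WT (0.683%) and 5 of 8 in D6-deficient skin (0.522%). Among these, Cxcl3 rose by 4.18 in WT (adjusted p 4.96e-06), whereas its change in D6-deficient skin was 0.84 (adjusted p 0.326, 0.49 to 1.20 with an array left out). Cxcl5 rose by 6.84 in WT, by 4.56 in D6-deficient skin, and Ppbp rose in both (adjusted p 6.52e-12 and 4.08e-11). Cxcl2 changed by 0.18 in WT (adjusted p 0.909), a value of -0.52 to 1.28 with an array left out, so that its direction is open, and in D6-deficient skin by -1.51 (95% CI -2.86 to -0.15, adjusted p 0.13), with every day 4 array below every day 2 array.

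**Figure D3:**
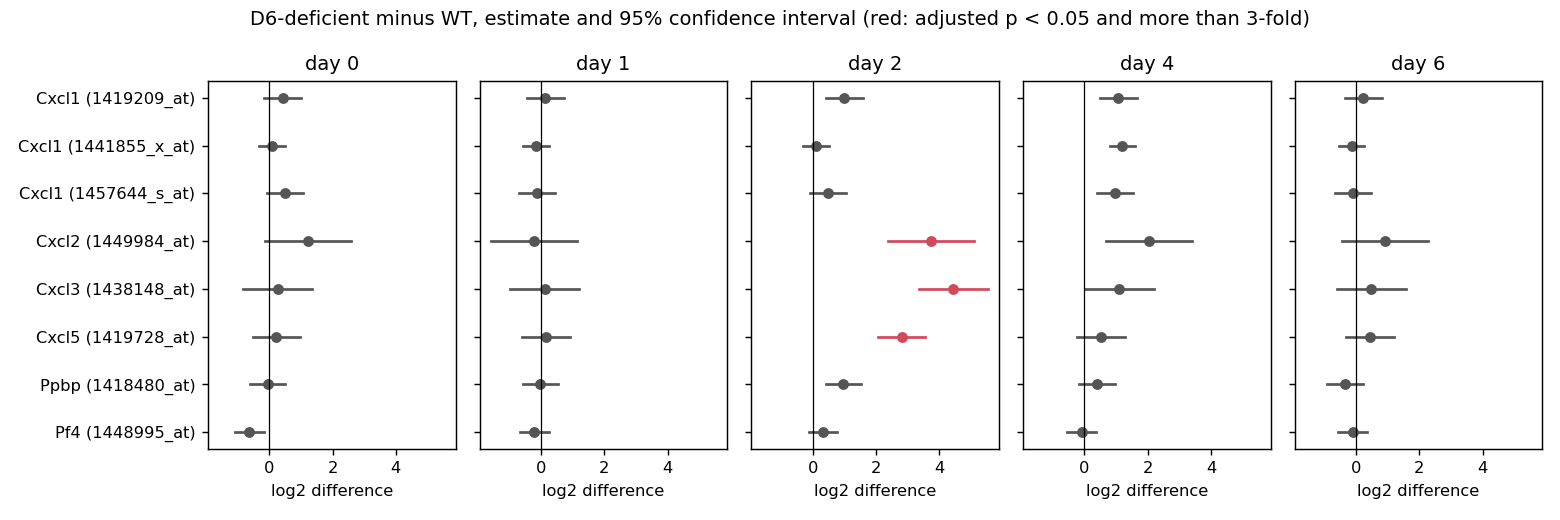
D6-deficient minus WT log2 intensity of each member probe set at days 0, 1, 2, 4 and 6, with the 95% CI from limma. Red points are called, and these are Cxcl2 (3.74), Cxcl3 (4.44) and Cxcl5 (2.81) at day 2.

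The comparison of genotypes at the same day asks what D6 deficiency changed. At day 2, 3 of 8 probe sets were called higher in D6-deficient skin (0.411% of all tested). By the adjusted p alone 5 passed, a limit at which no share of all tested is given. Of these, Ppbp and Cxcl1 by 1419209_at missed that limit with most single arrays left out. No member estimate was negative that day, when 0.161% of all tested probe sets were called lower. The median over the 8 member probe sets was 0.99 against -0.02 over all tested, and in 6 of 8 the genotypes did not overlap. No share of all tested probe sets without overlap is given, so how unusual that count is cannot be told. The member median counts Cxcl1 by each of its probe sets. With these averaged (0.53), the median over genes lay between Ppbp (0.96) and Cxcl5 (2.81). The t-test called the same 3, Ppbp (p 0.0141) and Pf4 (p 0.016) also passed its p alone, and 0 passed after adjustment, with adjusted p 0.288 for Cxcl2, 0.202 for Cxcl3 and 0.255 for Cxcl5.

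At the other days no member was called by limma, as the plot of genotype differences shows. Percentages here are the share of all tested called higher by limma, and do not apply to the counts by unadjusted p. At day 0 (0.0527% of all tested, with 25 probe sets called lower) 1 of 8 had an unadjusted p under 0.05. This was Pf4, which was lower in D6-deficient skin (-0.62). The t-test called 0, although Cxcl2 (p 0.0194) and Cxcl1 by 1419209_at (p 0.0243), both higher in D6-deficient skin, passed its p alone. Cxcl2 differed at day 0 by 1.24 (95% CI -0.12 to 2.60, adjusted p 0.406). At day 1 (0.00278%) and day 6 (0.00278%) 0 of 8 had an unadjusted p under 0.05 and the t-test called 0, with 0 and 1 by its p alone. At day 4 (0.0333%) 5 of 8 had an unadjusted p under 0.05, every Cxcl1 probe set among them. Of these, 1 passed the adjusted p without the fold limit. The t-test called 1 at day 4, Cxcl2 (p 0.0212), with 3 by its p alone. The member median at day 4 was 1.02, with 7 of 8 estimates positive and 5 without overlap between genotypes. Every Cxcl1 probe set was among these 5, and no share of all tested without overlap is given. Averaged over all days the differences of Cxcl2 (1.54, adjusted p 0.00172), Cxcl3 (1.28, adjusted p 0.00119), Cxcl5 (0.83, adjusted p 0.00225) and Cxcl1 by 1419209_at (0.58, adjusted p 0.00634) passed the adjusted p but not the fold limit.

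The difference between the genotypes in their changes from day 0 was tested directly, since their day 0 levels were not equal. At day 2, 2 of 8 were called (0.555% of all tested), Cxcl3 with 4.17 (95% CI 2.63 to 5.71, adjusted p 0.00126) and Cxcl5 with 2.58 (95% CI 1.52 to 3.65, adjusted p 0.00325), both called with each array left out. The t-test called the same 2, and 0 after adjustment. For Cxcl2 it was 2.50 (95% CI 0.58 to 4.42, adjusted p 0.134), and without WT replicate 2 of day 2 it was 3.60 and called (adjusted p 0.00476). For Pf4 it was 0.95 (95% CI 0.31 to 1.60, adjusted p 0.0774), and the t-test on values set against the median of the day 0 arrays, which leaves out the spread of day 0, gave 1.13 with adjusted p 0.0229, under 3-fold. At day 4 limma called none (0.05% of all tested), with 1 of 8 at an unadjusted p under 0.05, 0 called by the t-test (2 by its p alone) and all 8 limma estimates positive, from 0.30 to 1.11. At days 1 and 6 limma called none, with 0 at an unadjusted p under 0.05, and the t-test called 0, with 2 and 1 by its p alone. Of all 36029 tested, 0 were called higher (0%) and 1 lower (0.00278%) at each of these days. These differences share their day 0 arrays with the changes given above.

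A further comparison, an alternative chosen after seeing the data, tested whether the change from day 2 to day 4 differed between genotypes, and 2 of 8 were called lower in D6-deficient skin (0.25% of all tested). The values were -3.34 for Cxcl3 (adjusted p 0.0272) and -2.28 for Cxcl5 (adjusted p 0.0305), and -1.69 for Cxcl2 (adjusted p 0.611, -2.79 to -0.98 with an array left out). These calls were close to the threshold and were lost when any of several arrays was left out, in some cases with an estimate as large as before. Cxcl3 was not called without WT replicate 1 of day 2 (-3.20) or of day 4 (-3.37), D6-deficient replicate 2 of day 2 (-3.01) or of day 4 (-3.40), WT replicate 3 of day 2 (-2.64) or of day 4 (-2.83), or D6-deficient replicate 3 of day 4 (-2.98). Cxcl5 was not called without WT replicate 1 of day 2 (-2.16) or of day 4 (-2.22), D6-deficient replicate 1 of day 2 (-1.88) or of day 4 (-2.27), D6-deficient replicate 2 of day 4 (-2.33), WT replicate 3 of day 2 (-1.81) or of day 4 (-2.11), or D6-deficient replicate 3 of day 2 (-2.32) or of day 4 (-2.24). Adjusted p without these arrays reached 0.0986.

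Of the receptors and the cluster neighbour, 3 of 4 genes were tested, and Cxcr1 had no probe set by symbol. Cxcr2, the neutrophil receptor of the Cxcr2 ligands above, rose at day 4 by 3.02 in WT (adjusted p 4.52e-11) and 4.14 in D6-deficient skin (adjusted p 2.09e-13), and at day 2 by 1.91 in D6-deficient skin (adjusted p 4.85e-08). Its day 2 genotype difference of 0.84 (adjusted p 0.00982) was under 3-fold, with no overlap between genotypes. Ackr1, a chemokine-binding receptor of vessels and red cells, differed between genotypes by -0.05 at day 2 (adjusted p 0.948), and its change to day 4 was -0.50 in WT (adjusted p 0.0274) and -0.36 in D6-deficient skin (adjusted p 0.108). Cxcl15, which lies between Cxcl3 and Cxcl1, changed by 0.22 in WT (adjusted p 0.185) and -0.06 in D6-deficient skin to day 4.

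The upstream cytokine list holds cytokines taken as possible inducers of Cxcr2 ligands, and whether each acts upstream of the members was not tested. Of 10 tested of 12 listed, 6 rose at day 2 and 6 at day 4 in WT, and 5 and 5 in D6-deficient skin, with WT medians of 2.51 and 3.08 and D6-deficient medians of 1.73 and 1.69. Between genotypes at day 2 their median was 0.14. Of them 1 was called higher in D6-deficient skin at day 0, Il36a with 1.92 (adjusted p 0.0243), 1 at day 2, Il1b with 1.75 (adjusted p 0.00128), and 2 at day 4, Csf3 with 1.82 (adjusted p 5e-04) and Il17a with 1.83 (adjusted p 0.0447). At day 4 Il6 rose by 6.32 in WT and 6.58 in D6-deficient skin. Il36a, the most abundant (mean 10.81), rose at day 2 by 5.32 in WT and 2.66 in D6-deficient skin. In the difference of changes from day 0, in which Cxcl3 and Cxcl5 were higher in D6-deficient skin at day 2, 3 of the 10 cytokines were called lower that day (0.555% of all tested). These were Il1a (-2.05, adjusted p 0.0029), Il36a (-2.66, adjusted p 0.0099) and Il36b (-1.88, adjusted p 0.0123). At day 4 Il36a was called lower (-2.75, adjusted p 0.0359; 0.103% of all tested) and Csf3 higher (1.81, adjusted p 0.0211). Of 11 NF-kappaB and mRNA decay regulators, 2 rose in WT at day 2, Rel (2.12) and Zc3h12a (1.79), and limma called 0 between genotypes at day 2 (2 at an unadjusted p under 0.05, 0 by the t-test, 0 by its p alone). The most abundant, Nfkbia, differed there by 0.03 (adjusted p 0.956).

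**Figure D4:**
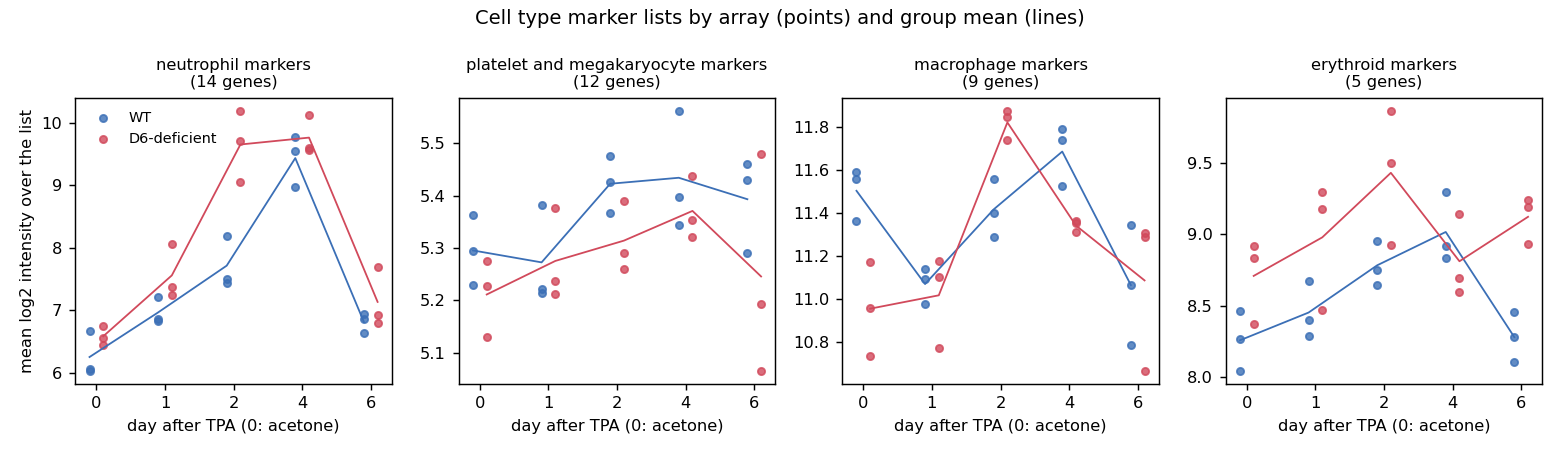
Mean log2 level of the neutrophil, platelet, macrophage and erythroid marker lists in each of the 30 arrays, by day and genotype. Neutrophil means at day 2 were 7.44 to 8.20 in WT and 9.06 to 10.19 in D6-deficient skin, without overlap.

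The members are set here beside marker lists of the cells that make or follow them, a comparison shown in the plot of marker lists. Neutrophil markers, 14 tested of 15 listed and Cxcr2 among them, had means of 7.51, 8.20 and 7.44 in the day 2 arrays of WT and 9.06, 9.72 and 10.19 in those of D6-deficient skin. At day 0 the means were 6.67, 6.06 and 6.03 in WT against 6.55, 6.45 and 6.75 in D6-deficient skin, and at day 4 they were 9.55, 8.98 and 9.78 in WT against 10.12, 9.57 and 9.60 in D6-deficient skin. At day 1 they were 7.22, 6.82 and 6.86 in WT against 7.24, 8.06 and 7.38 in D6-deficient skin, with 0 of 14 called by limma (3 at an unadjusted p under 0.05, 1 by the t-test, 1 by its p alone). The genotypes thus did not overlap at days 1 and 2, and overlapped at days 0, 4 and 6. Within day 2 the order of arrays agreed only in part. WT replicate 2 was the highest of its group for these markers and for Cxcl2, Cxcl3, Cxcl5, Ppbp, Pf4 and Cxcl1 by 1441855_x_at. It was not the highest for Cxcl1 by 1419209_at or 1457644_s_at. D6-deficient replicate 3 was the highest of its group for these markers and the lowest for Cxcl2, Cxcl3 and Cxcl1. Between genotypes at day 2, 7 of 14 were called higher, with a list median of 1.56. They were led by Ngp (4.82, adjusted p 0.000485), Ltf (3.82, adjusted p 0.00171) and Camp (3.28, adjusted p 0.00124). S100a9, the most abundant (mean 12.98) and made also by keratinocytes, as are S100a8 and Lcn2, differed by 0.10 (adjusted p 0.967). Its day 2 values of 14.36 to 14.83 lay near the highest value on any array, 14.98, so this does not show that the genotypes were alike. In WT 11 rose at day 4, including Lcn2 (6.24), and in D6-deficient skin 11 rose at day 2 and 12 at day 4, including Mmp8 (5.55). The part of neutrophil number in the member values was not tested.

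Platelet and megakaryocyte markers bear on Pf4 and Ppbp. Between genotypes limma called 0 of 12 at day 2 (2 at an unadjusted p under 0.05) and 0 at day 4 (0 unadjusted). Against day 0 it called 0 at days 2 and 4 in WT (3 and 2 unadjusted) and 0 in D6-deficient skin (3 and 4 unadjusted), and the t-test called 0 in all of these. By its p alone 0 and 1 passed between genotypes at these days, 3 and 0 in WT and 1 and 3 in D6-deficient skin. Group means of the list stayed between 5.21 and 5.43. The most abundant, Gp1bb (mean 8.65), whose probe set is also assigned to Sept5, differed by -0.37 between genotypes at day 2 (adjusted p 0.154). In D6-deficient skin, where Pf4 and Ppbp rose at day 4, the list mean was 5.13 to 5.28 at day 0 and 5.32 to 5.44 at day 4, without overlap, and the median of the markers changed by 0.08. Several of these markers lay near the lowest mean tested, and the part of platelets in the Pf4 and Ppbp values was not tested. Of 9 macrophage markers, 3 rose at day 2 in D6-deficient skin, Cd68 (2.23), Folr2 (1.79) and Cd14, and 1 was called between genotypes, Cd14 (1.62, adjusted p 0.00231). The most abundant, Lyz2, differed by 0.54 (adjusted p 0.012). The list mean was lower in D6-deficient skin without overlap at day 0, where it was 11.59, 11.56 and 11.36 in WT against 10.73, 11.17 and 10.96 in D6-deficient skin, beside the Pf4 difference of -0.62. At day 2, when the Pf4 arrays of D6-deficient skin were the higher, it was higher there without overlap, at 11.40, 11.56 and 11.29 in WT against 11.87, 11.85 and 11.74 in D6-deficient skin. It was again lower without overlap at day 4, with group means of 11.68 in WT and 11.34 in D6-deficient skin. Limma called 0 of 9 between genotypes at days 0 and 4 (6 and 3 at an unadjusted p under 0.05, 0 by the t-test, 7 and 2 by its p alone), with list medians of -0.44 and -0.30. The part of macrophages in the Pf4 values was not tested.

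Of 5 erythroid markers 1 rose at day 4 in WT, Alas2 (1.69), and 1 at day 2 in D6-deficient skin, again Alas2 (1.68), while Hba-a1 (mean 13.99, a probe set also assigned to Hba-a2) differed by 0.33 between genotypes at day 2 (adjusted p 0.487). Between genotypes at day 2 limma called 0 of 7 endothelial markers (5 at an unadjusted p under 0.05, 0 by the t-test, 2 by its p alone), with Pecam1, the most abundant, differing by 0.64 (adjusted p 0.0779). It called 0 of 6 fibroblast markers (0 unadjusted, 0 by the t-test, 0 by its p alone), with Col3a1 differing by 0.07 (adjusted p 0.844). The mean of 7 tested keratinocyte markers was apart at day 0, the baseline of the changes, at 11.33, 11.09 and 11.13 in WT against 12.08, 11.83 and 12.20 in D6-deficient skin, with 1 called higher, Krt16 (2.48, adjusted p 0.0184). At day 0 the endothelial list (8.75 in WT, 8.53 in D6-deficient skin) and the muscle list (13.73 and 13.47) were also without overlap, lower in D6-deficient skin. At day 2, when Cxcl2, Cxcl3 and Cxcl5 were called, the endothelial list was higher in D6-deficient skin (8.57 to 9.11 against 8.29 to 8.54), and the keratinocyte (12.31 to 12.46 against 12.50 to 12.75) and muscle lists (11.48 to 11.82 against 12.29 to 12.32) were lower, all without overlap. Among the keratinocyte markers Krt16 rose by 7.19 in WT at day 2, and in D6-deficient skin at day 4 Krt10 fell by 5.52, Krt1 fell by 4.46 and Krt15 fell by 4.02. Of 6 skeletal muscle markers, 5 fell in D6-deficient skin at day 2 and 2 in WT skin, with a median of -0.65 between genotypes. In D6-deficient skin Myh4 fell by 3.30 and Actn3 fell by 3.15 at day 1, and Tnnt3 fell by 1.82 at day 6. Of 6 tested T cell markers limma called 0 between genotypes at day 2 (1 unadjusted, 0 by the t-test, 0 by its p alone), where Cd3d differed by 0.05 (adjusted p 0.96), and Trac, whose probe set is also assigned to A130082M07Rik, rose by 2.28 in WT at day 1. The part of these cells in the member values was not tested.

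**Figure D5:**
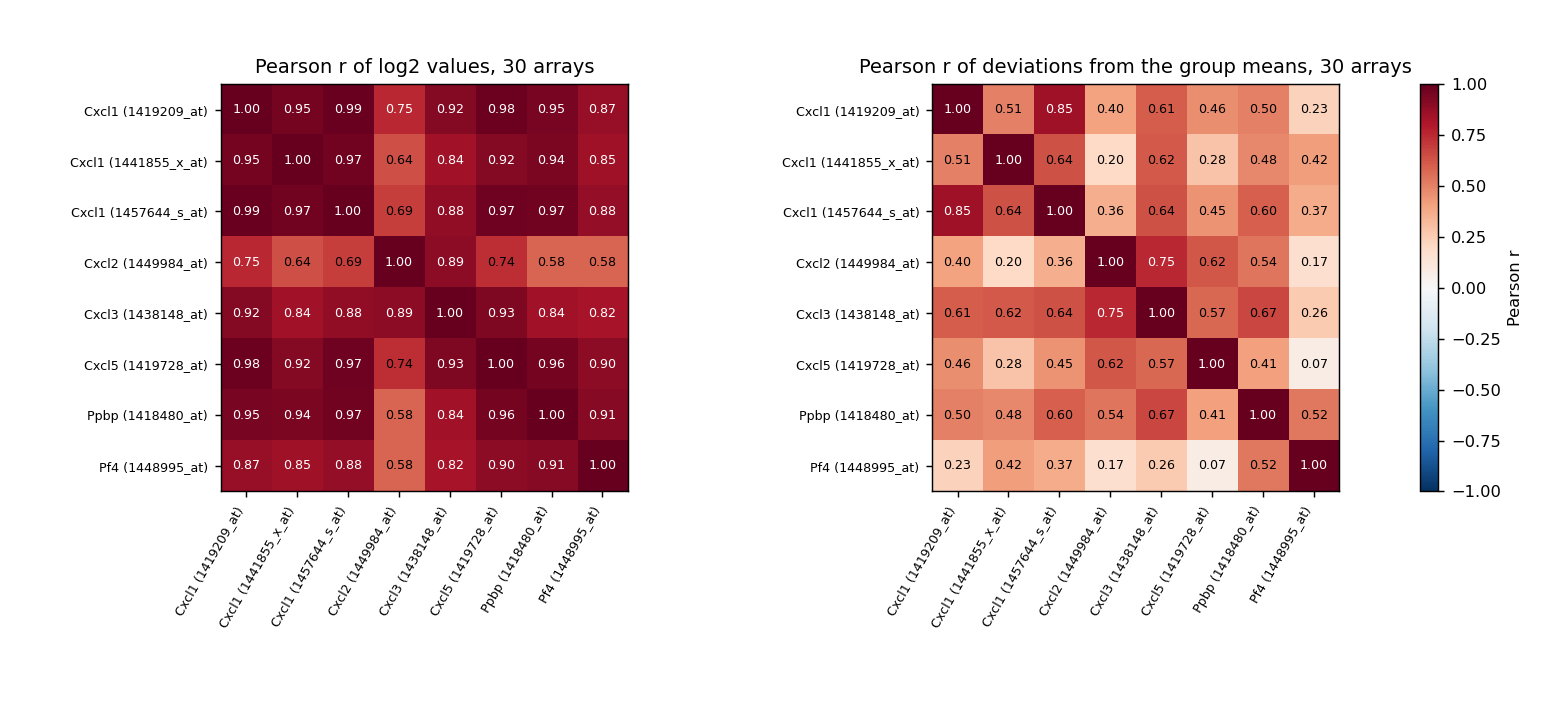
Pearson r between member probe sets over 30 arrays, for log2 values and for deviations from group means. Cxcl2 and Cxcl3 had r of 0.894 and, for deviations, 0.751.

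Over the 30 arrays, which share their groups, the members moved together to different degrees, as the map of correlations between members shows. Among Cxcl1 probe sets, 1419209_at and 1457644_s_at had r 0.990, and 0.849 for deviations from group means. Cxcl2 was closest to Cxcl3 (r 0.894, deviations 0.751) and farther from Ppbp (r 0.584, deviations 0.538). Cxcl5 and Ppbp had r 0.960, which was 0.410 for deviations, and Cxcl5 and Pf4 had 0.897, which was 0.0719 for deviations. Other pairs had r for deviations not far below that of Cxcl2 and Cxcl3. These were 0.670 for Cxcl3 and Ppbp, 0.639 for Cxcl3 and Cxcl1 by 1457644_s_at, and 0.624 for Cxcl2 and Cxcl5. Varying together within groups was thus not particular to Cxcl2 and Cxcl3, while Cxcl5 and Pf4 mainly shared their group means. WT replicate 2 of day 2 lay far above its group mean for Cxcl2 (10.45 against 8.25) and Cxcl3 (6.67 against 4.96). That array weighs on the r for deviations of Cxcl2 and Cxcl3, which was not computed without it.

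The genes outside the members with the most similar pattern, by Pearson r over the 30 arrays, were Il6 (0.974), Cxcr2 (0.971) and Csf3 (0.969) for Cxcl1 by 1457644_s_at. For Cxcl2 they were Slc7a11 (0.95), Ccl3 (0.946) and Irg1 (0.944), with Spearman rho of 0.940, 0.938 and 0.941. For Cxcl3 they were Trem1 (0.989), 1810033B17Rik (0.983) and Clec4e (0.978). For Cxcl5 they were Il1rap (0.977), Cxcr2 (0.973) and Nlrp12 (0.971), with rho of 0.827, 0.847 and 0.814. Ppbp was most like Csf3 (0.977), Fgf23 (0.974) and Ehd1 (0.973), where rho was lower, at 0.694, 0.669 and 0.802. Pf4 was most like Hk3 (0.962), Alox5ap (0.948) and Ccl9 (0.939).

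The 9 hybridization control probe sets divided the arrays into 17 brighter (10.58 to 10.93, 9 of them WT) and 13 dimmer ones (9.85 to 10.31, 6 of them WT). At day 2, D6-deficient minus WT within the brighter arrays, 1 against 2, was 2.96 for Cxcl2, 3.61 for Cxcl3 and 2.61 for Cxcl5. Within the dimmer arrays, 2 against 1, it was 4.72 for Cxcl2, 5.08 for Cxcl3 and 3.09 for Cxcl5. With 1 array on a side, neither comparison shows whether a difference holds within a set. Adding the set to the fit changed no member call.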

How the data were processed

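The authors processed the arrays with RMA (background correction, quantile normalization and summarization, version not given) in GeneSpring GX and deposited linear intensities; log2 was taken here. Per the labels, replicates are biological, and each of the 30 arrays was assigned to its genotype and day. The 64 control probe sets and the 9008 probe sets with the lowest means (20%) were left out, so that 36029 were tested, with a lowest mean log2 of 3.72. Array medians were 5.64 to 5.80, and arrays of a group correlated at 0.972 to 0.994.

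limma (3.58.1, R 4.3.3) fitted a mean for each group, with empirical Bayes variances and Benjamini-Hochberg adjustment over all tested probe sets. The median SD within a group was 0.153, and the number of arrays limits the precision. The fit was tested on simulated data. Python 3.11.15 with numpy 2.4.6, pandas 2.3.3 and matplotlib 3.10.9 read the promoters and drew the figures.

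The members, and the lists of receptors, upstream cytokines, NF-kappaB and mRNA decay regulators and of neutrophil, platelet, erythroid, macrophage, endothelial, keratinocyte, fibroblast, skeletal muscle and T cell markers, were chosen with earlier results of these data known. Each listed gene was read by its brightest tested probe set. Every member probe set and every receptor was named, and from the other lists the most abundant gene and up to 3 in each direction with the largest called genotype difference at day 2 or change from day 0. Il17a, Il1a, Il36b, S100a8, the genotype values of Csf3 at day 4 and of Il36a and Krt16 at day 0, and the differences of changes given for cytokines were chosen after their values were seen. Likeness named the 3 genes with the highest r for each member.

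The alternatives were no filter on low values, median-centred arrays, only the arrays compared, the replicate number as a block, the hybridization set as a covariate, array weights, trend and robust variances, other fold limits, the unpaired t-test of the methods, probe sets averaged by gene, and each array left out.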

Additional observations from a re-analysis of the deposited data

Results flagged for a closer look

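Cxcl3 and Cxcl5 responded differently in the genotypes by a test of the difference itself. The change from day 0 to day 2 was larger in D6-deficient than in WT skin by 4.17 for Cxcl3 (adjusted p 0.00126) and by 2.58 for Cxcl5 (adjusted p 0.00325). The change from day 2 to day 4, a comparison chosen after seeing the data, differed by -3.34 for Cxcl3 (adjusted p 0.0272) and by -2.28 for Cxcl5 (adjusted p 0.0305). These pairs of results share the day 2 arrays, so they are not independent. The day 2 differences were called with each of 12 arrays left out, whereas of the later ones Cxcl3 was called in 5 and Cxcl5 in 3 of 12, the arrays being named in the results. The t-test of the methods was run on values set against the median of each genotype's own day 0 arrays, where the day 2 differences were 4.48 for Cxcl3 (p 0.0106, adjusted p 0.0804) and 2.56 for Cxcl5 (p 0.0291, adjusted p 0.131), so both were called at the unadjusted p and 3-fold limit of the methods and neither after adjustment. The cause was not tested.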

How the results depend on the processing

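Leaving aside the change from day 2 to day 4 between genotypes, which was added after seeing the data, all 184 member values kept their side of the threshold with no filter on low values, with median-centred arrays, with the hybridization set as a covariate, and with trend and robust variances. Replicate numbers did not pair the arrays (8 of 39 same-number pairs correlated above 0.1, and 12 of 30 arrays best with their own number), and adding the replicate block changed 0 calls, with 3 members called between genotypes at day 2. Sign changes smaller than a value's standard error were not counted as reversals.

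With only the arrays compared, 0 members were called in the change from day 2 to day 4 between genotypes. Array weights gave 1 at day 1 in D6-deficient skin. With no fold limit the counts were 5 between genotypes at day 2, 1 at day 4, 2 in WT at day 1, 8 in D6-deficient skin at day 2 and 7 from its day 1 to day 2. A 2-fold limit gave 1 between genotypes at day 4 and 7 in D6-deficient skin at day 2. Shares of all tested probe sets at these lower limits are not given, so the counts have no background beside them. With the 3-fold limit, the adjusted t-test gave 0 between genotypes at day 2, 0 in WT at day 2, 0 for the difference of changes at day 2, 0 in WT from day 2 to day 4 and 1 in D6-deficient skin from day 1 to day 2. Unadjusted it gave 1 between genotypes at day 4 and 2 in WT at day 2, also with that limit, against 3 and 4 by p alone. By adjusted p alone it gave 1 for the difference of changes at day 2, Pf4 (0.0229). In WT at day 2 its unadjusted p was 0.0952 for Cxcl3 and 0.068 for Cxcl5. Averaging probe sets by gene gave 3 in D6-deficient skin from day 2 to day 4, of fewer features. Except for that averaging, the cause was not tested.

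With each array left out, counts ranged from 0 to 2 for the change from day 2 to day 4 between genotypes, 0 to 1 in D6-deficient skin at day 1, 2 to 5 in WT at day 2 and 0 to 1 in WT from day 1 to day 2. In the first of these Cxcl3 was called in 5 and Cxcl5 in 3 of 12. Without that comparison, of 1296 such values 1282 kept their side, 3 lost and 9 gained a call, and 2 reversed. Ppbp ranged from -0.10 to 0.82 between genotypes at day 4 and from -0.057 to 0.865 in the difference of changes, the lowest without WT replicate 2 of day 4. Mmp8 ranged from -0.060 to 0.73 between genotypes at day 4. The cause was not tested.

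Low intensities near the background of the array, such as those of Cxcl3, Cxcl5 and Ppbp at day 0, limit how exactly a fold against day 0 is known. The same holds for Cxcl5 and WT Cxcl3 against day 6.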
